A study of Saccharomyces cerevisiae with 4 samples.

Results

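The nuclear genes for the subunits of cytochrome c oxidase were followed in wild type (WT) yeast and in a strain without *PUF3* (*PUF3Δ*). The genes were chosen by identifier: COX4 (YGL187C), COX6 (YHR051W), COX7 (YMR256C), COX8 (YLR395C), COX9 (YDL067C), COX12 (YLR038C), COX13 (YGL191W) and COX26 (YDR119W-A). The tables held 7 of these 8 identifiers among 6673 genes, and COX26, which codes for a small membrane protein of the complex, was not analysed here. The COX5 isoforms were left out of the group and are given beside it.

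RNA was sequenced from 2 libraries of each strain of *S. cerevisiae*, grown overnight in the glucose medium YPD and then moved into YPEG, a rich medium whose carbon sources are ethanol and glycerol. The labels name BY4742 as the strain of all 4 libraries, with mating type MATa and the alleles his3Δ1, leu2Δ0, met15Δ0 and ura3Δ0, while the methods name BY4741, and the only listed difference between the groups is the deletion of *PUF3*. The sources do not say how many clones of the deletion strain were used, nor whether the replicates came from separate cultures, so the p-values measure only the spread between these libraries. Values are RPKM, the reads per kilobase of gene and per 1000000 reads on the listed genes.

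The libraries held between 6703910 and 8228693 reads on genes. *PUF3* was at an RPKM of 29.2 and 35.0 in WT (569 and 761 reads) and at 0.113 and 0.280 in *PUF3Δ* (2 and 6 reads), as the labels say. LYS2, which BY4742 lacks, had at most 4 reads in a library, whereas MET17, the present name of *MET15*, was at an RPKM of 512.0 and 533.8 in WT and 125.0 and 110.3 in *PUF3Δ*, against the met15Δ0 of the labels, although 1 other listed gene overlaps it. MF(ALPHA)1, a pheromone gene of alpha cells, was at an RPKM of 5030 and 4012 in WT and 1662 and 1834 in *PUF3Δ*, and STE2, the receptor gene of a cells, at 15.4 and 13.5 in WT and 4.60 and 4.75 in *PUF3Δ*, against the MATa of the labels.

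Cytochrome c oxidase is the last enzyme of the respiratory chain. It takes electrons from cytochrome c, passes them to oxygen and pumps protons across the mitochondrial inner membrane, and yeast cells on ethanol and glycerol cannot grow without it. Its catalytic core, Cox1p to Cox3p, is encoded by mitochondrial DNA, and the smaller subunits around the core are made in the cytosol from nuclear genes and imported. Puf3p is an RNA-binding protein that recognises the element TGTANATA downstream of stop codons, mostly in mRNAs for mitochondrial proteins, and promotes their decay. According to the paper, the effect of RNA-binding proteins on expression can sometimes reverse between growth conditions. Many respiratory genes also depend on the Hap2/3/4/5 complex, which binds CCAAT in promoters.

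The sequences of the Puf3p element and of CCAAT near the 7 genes are shown because these are the elements through which the protein under study and the respiratory activator are known to act. They were read from the RefSeq genome R64. Within 200 nt after the stop codon, 1 of the members had TGTANATA on the coding strand, against 14.1% of 6002 nuclear genes. This gene was COX8, with the element starting 32 nt after the stop codon, in chrXII:909681-909706 on the minus strand. The capitals mark the element.
COX8: atagatgtgTGTACATAgcgtgcttg

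Within the 250 nt before the start codon, 6 of the 7 genes held CCAAT on 1 of the strands, against 35.4% of the 6002 genes. COX4 was the gene without it in this window. Each site is printed on the coding strand, and the capitals mark CCAAT, or ATTGG where CCAAT lies on the opposite strand. A match is a description of the letters in these windows and was not tested for binding.
COX12, chrXII:225364-225386, minus strand: taacattgaCCAATcaattttca
COX13, chrVII:144587-144609, plus strand: tttttcccaCCAATgagaggcgg
COX8, chrXII:910153-910175, minus strand: cggtttgcaCCAATcatacgaga
COX6, chrVIII:209481-209503, plus strand: agggacctaATTGGtccggtcaa
COX7, chrXIII:779276-779298, minus strand: cagtacttgATTGGctacgccgc
COX9, chrIV:334530-334552, minus strand: tgcaacctgATTGGcccgctacc

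The sites of COX8, COX12, COX13 and COX6 ended 197, 201, 208 and 211 nt before the start codon, and those of COX9 and COX7 ended closer to it, at 143 and 158 nt.

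All 7 genes were strongly expressed. In every library each of them stood above at least 93.2% of the listed genes, and COX8 above at least 98.9%. All have a single coding exon of 180 to 468 nt in R64, and in the tables none overlaps another listed gene, the nearest being 59 nt from COX6. A member was covered by between 557 and 4664 reads in a library. The levels were not even, although the subunits are thought to be present in equal numbers in the complex. On the RPKM scale, which is per length, the highest gene was 5.54 and 5.95 times the lowest in the WT libraries and 3.97 and 4.38 times in the *PUF3Δ* libraries.

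In *PUF3Δ*, the mean RPKM fell by 23.9% for COX8, fell by 19.7% for COX9 and fell by 18.8% for COX12, and COX4, COX6, COX7 and COX13 did not pass the test. The strains were compared with limma on log2(RPKM + 1) over the 5860 genes whose mean RPKM reached 1, all 7 oxidase genes among them, at a Benjamini-Hochberg adjusted p under 0.05. Thus 3 of 7 genes were called lower, where 54.2% of all genes tested were called lower, and 0 of 7 were called higher, where 18.9% of all genes were. At an unadjusted p under 0.05 the numbers were also 3 and 0, but the share of all genes was not counted at that threshold. At this level of RPKM the pseudocount of 1 has little effect on the fold change. In RNA from a whole culture, less RNA per cell and fewer cells holding the RNA cannot be told apart. RPKM is also relative to all reads on genes, so a change in the other RNAs moves it too.

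COX8 (chrXII:909729-909965, minus strand) codes for subunit VIII, a small subunit that crosses the membrane once. Its RPKM was 2545 and 2382 in WT and 1792 and 1959 in *PUF3Δ*, so both *PUF3Δ* libraries were below both WT libraries. The WT libraries averaged 2463 ± 115.6 (SD, n = 2), and those of *PUF3Δ* averaged 1875 ± 118 (SD, n = 2). The log2 fold change was -0.39 (standard error 0.09, adjusted p = 0.0048 from limma), the lowest of the 7. COX8 was thus the highest gene of the group in all 4 libraries, with the lowest fold change on the values as deposited. That fold change was still above those of 49.5% of all genes tested. COX8 was also the only member with TGTANATA within 200 nt after its stop codon, where 14.1% of 6002 nuclear genes held it. A link between the element and the fold change was not tested.

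COX9 (chrIV:334217-334396, minus strand) codes for subunit VIIa, another subunit anchored in the membrane. It stood at an RPKM of 1279 and 1175 in WT and at 977 and 995 in *PUF3Δ*, without overlap, and its log2 fold change was -0.31 (standard error 0.08, adjusted p = 0.0092 from limma). COX12 (chrXII:224921-225172, minus strand) codes for subunit VIb, which lies on the side of the intermembrane space. Its values were close within each strain, with 831 and 843 in WT and 689 and 671 in *PUF3Δ*. The log2 fold change of COX12 was -0.30 (standard error 0.07, adjusted p = 0.0074 from limma), again without overlap between the strains.

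COX4 (chrVII:149704-150171, minus strand) codes for the zinc-binding subunit IV, which faces the matrix. Its WT libraries, at an RPKM of 792 and 676, lay on either side of the *PUF3Δ* libraries, at 706 and 725. The log2 fold change of COX4 was -0.03, with a 95% confidence interval from -0.25 to 0.19 (adjusted p = 0.77 from limma). COX6 (chrVIII:209705-210151, plus strand) codes for subunit VI, which also faces the matrix. It was at 1007 and 1045 in WT and at 936 and 1013 in *PUF3Δ*, so the strains overlapped, and its log2 fold change of -0.08 had an interval from -0.26 to 0.11 (adjusted p = 0.41 from limma).

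COX13 (chrVII:144808-145197, plus strand) codes for subunit VIa, a peripheral subunit that cells can do without. Its RPKM was 966 and 1007 in WT and 964 and 951 in *PUF3Δ*. These values do not overlap, but the nearest libraries stood at 966 and 964, and the log2 fold change was -0.04, with an interval from -0.22 to 0.13 (adjusted p = 0.61 from limma). With COX13, 4 of the 7 genes were lower in both *PUF3Δ* libraries than in both WT libraries, as were 62.6% of all genes tested. COX7 (chrXIII:778945-779127, minus strand), for subunit VII, was the lowest gene of the group in all libraries. It stood at 459 and 400.2 in WT and at 452 and 447 in *PUF3Δ*, both inside the range of the WT libraries. Its log2 fold change of 0.07, with an interval from -0.14 to 0.28 (adjusted p = 0.51 from limma), was the only one above 0.

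**Figure D1:**
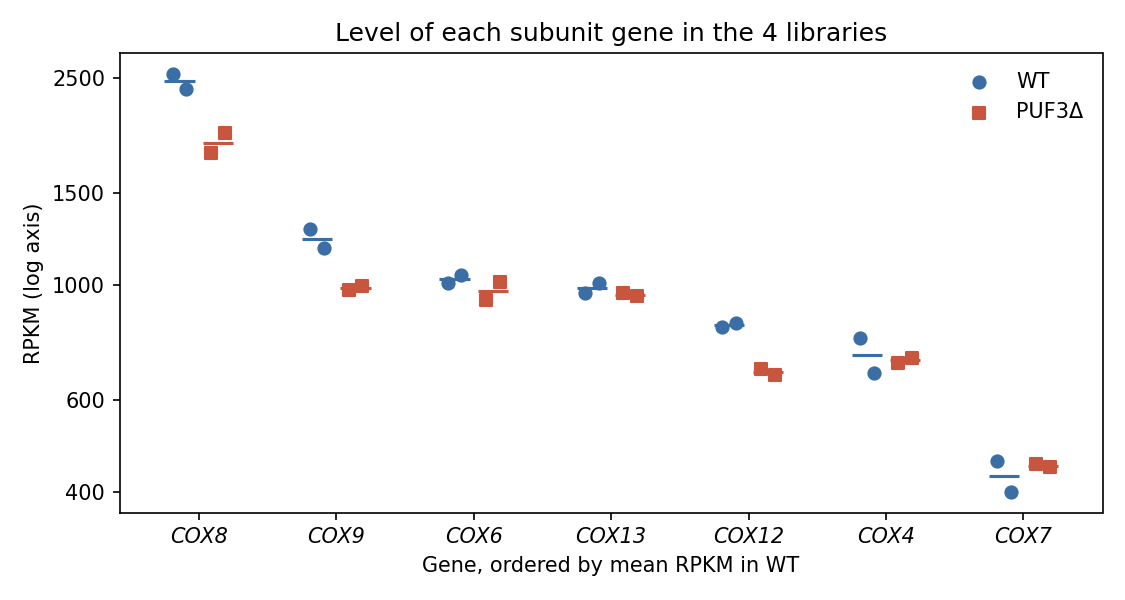
RPKM (log axis) of the 7 genes in each library, with WT as circles, *PUF3Δ* as squares and a bar at the mean of the 2 libraries of a strain. COX8, COX9 and COX12 are lower in both *PUF3Δ* libraries, while the points of COX4, COX6 and COX7 overlap between the strains and those of COX13 nearly meet.

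The study expressed the action of Puf3p as the percentage by which a level is reduced from *PUF3Δ* to WT. On the mean RPKM this percentage was 4.34% for COX7 and negative for the other genes, from -2.56% for COX4 to -31.4% for COX8. For COX8, the gene with the Puf3p element, the RNA as deposited was therefore higher in the strain that has the protein, although the log2 fold change of this gene was above 0 after a correction for length. The percentage was -24.5% for COX9, -23.2% for COX12, -5.32% for COX6 and -3.05% for COX13.

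With a *PUF3Δ* library left out, the remaining one is assumed to vary like the WT pair. Fits with 1 library left in a strain cannot settle whether the calls hold, so only log2 fold changes are given. Without *PUF3Δ* replicate 1 these were -0.33 for COX8, -0.30 for COX9 and -0.32 for COX12. Without *PUF3Δ* replicate 2 they were -0.46, -0.33 and -0.28 in the same order. Leaving out WT replicate 1 gave -0.35, -0.25 and -0.31, and leaving out WT replicate 2 gave -0.44, -0.38 and -0.29.

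The direction of these calls depended on the scaling. Over the 5860 genes the log2 fold change had a median of -0.39, and over the 7 genes it had one of -0.08. Relative to the median of all genes, COX7 lay 0.45 higher, COX4 0.35, COX13 0.34 and COX6 0.31, while COX12 and COX9 lay 0.09 and 0.07 higher and COX8 stood at -0.01. After median-of-ratios scaling, which moved the median of all genes to -0.01, no member was lower past the threshold. The share of all genes called lower under that scaling was not counted. COX4, COX6, COX7 and COX13 were then higher in *PUF3Δ*, with log2 fold changes of 0.36, 0.32, 0.46 and 0.35 and adjusted p from 0.0039 to 0.014 in limma. Thus 4 of 7 genes were called higher, against 33.9% of all genes under that scaling. COX8 was at -0.0028, COX9 at 0.08 and COX12 at 0.09 there. Quantile normalization gave an intermediate picture, in which COX8 and COX9 were called lower (2 of 7, against 34.2% of all genes), with log2 fold changes of -0.27 and -0.24.

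Gene length moved with the fold change across the genome, and the 7 genes are short. In the eighth of the genes tested with the shortest length, 75 to 435 nt, the log2 fold change had a median of -0.75, and in the eighth with the greatest length one of 0.22. Among the 1208 genes tested of at most 600 nt, the median was -0.70, and 63.7% were called lower and 10.9% higher. Beside these genes the members were among the less reduced: COX8 stood above 64.2% of them in log2 fold change, COX9 above 68.0%, COX12 above 68.5%, COX6 above 77.5%, COX13 above 78.6%, COX4 above 79.0% and COX7 above 81.6%. Whether the length trend comes from the strains or from the preparation of the libraries cannot be told apart, since each library holds 1 strain. After a loess correction of each library for length, 6 of 7 genes were called higher in *PUF3Δ*, against 30.1% of all genes. Their log2 fold changes ran from 0.30 for COX9 to 0.68 for COX7, and COX8 was at 0.21 (adjusted p = 0.056 from limma).

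**Figure D2:**
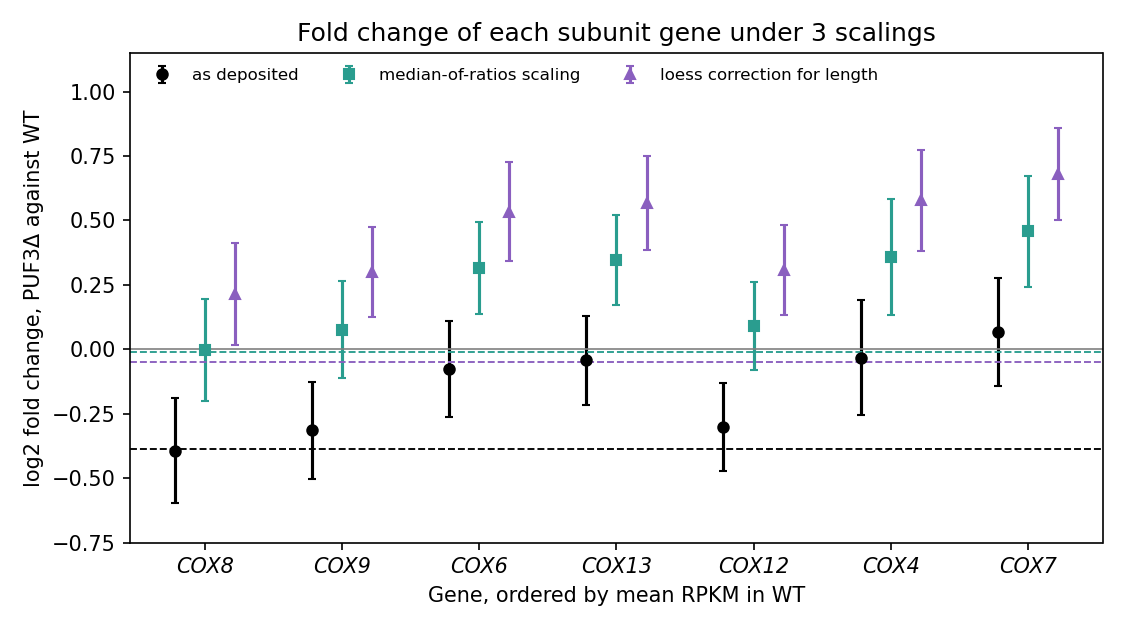
Log2 fold change of each gene with its 95% confidence interval from limma, as deposited (circles), after median-of-ratios scaling (squares) and after loess correction for length (triangles), with a dashed line at the median of all genes in the same colour. The points of a gene shift upward together from -0.39 to 0.21 for COX8 and from 0.07 to 0.68 for COX7, and COX8, COX9 and COX12 are the lowest genes under each of these scalings.

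**Figure D3:**
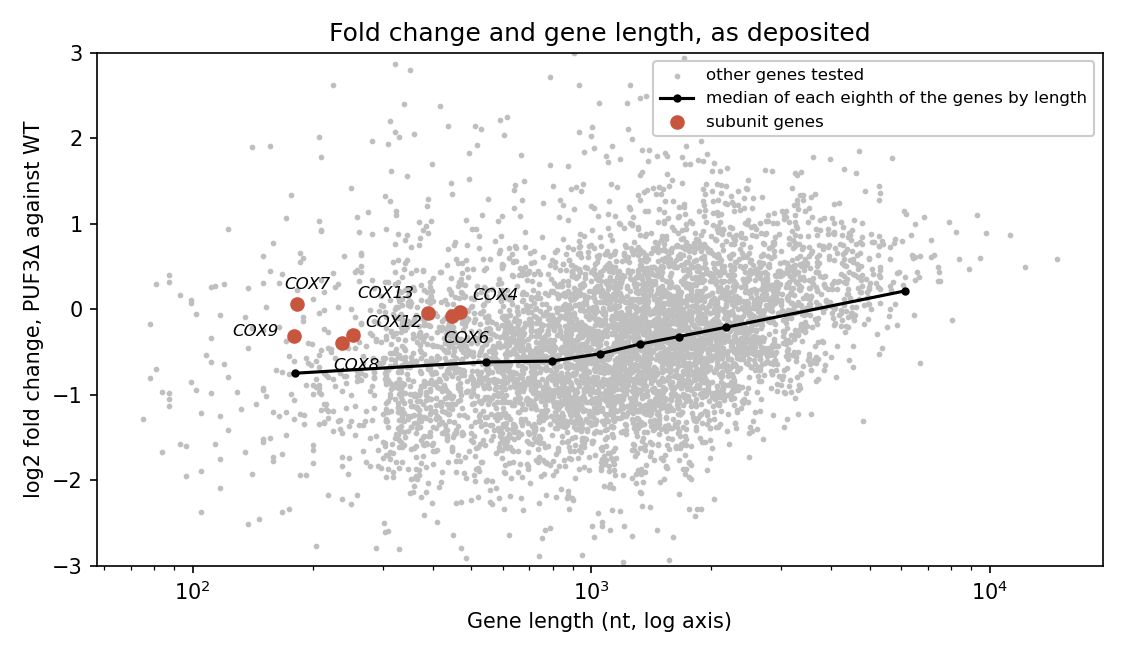
Log2 fold change as deposited against gene length (log axis) for the 5860 genes tested, with the 7 genes as large points and the median of each eighth of the genes by length as a line. The 7 genes lie above the line at their lengths, and 27 genes beyond 3 in either direction are outside the plot.

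Scaling a library multiplies all its genes alike, so it leaves the differences among the 7 genes nearly as they were. The distance between the lowest and the highest log2 fold change, those of COX8 and COX7, was 0.46 as deposited, and it ran from 0.39 to 0.53 when a library was left out, with COX13 the highest without WT replicate 2. It was 0.44 after quantile normalization and 0.47 after the length correction, which do not treat all genes alike. The ratio of COX8 to COX7 RNA within a library, which no scaling of the library can change, was 5.54 and 5.95 in WT and 3.97 and 4.38 in *PUF3Δ*. An exact permutation test of 2 against 2 libraries cannot give a p below 0.333, so such ratios are given as values. COX8 and COX7 are 237 and 183 nt long.

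As shares of the summed RPKM of the 7 genes, COX8 took 32.3% and 31.6% in WT and 27.5% and 29.0% in *PUF3Δ*. COX9 went from 16.2% and 15.6% to 15.0% and 14.7%, while COX12, with 10.5% and 11.2% in WT, overlapped with its *PUF3Δ* shares of 10.6% and 9.92%. COX7 took 5.83% and 5.32% in WT and 6.93% and 6.61% in *PUF3Δ*. The shares of COX4, COX6 and COX13 were likewise higher in both *PUF3Δ* libraries than in both WT libraries, with means of 9.51%, 13.3% and 12.8% in WT and 10.8%, 14.7% and 14.4% in *PUF3Δ*. Shares add up to a fixed total, so the lower share of COX8 raises the others. With COX8 left out of the sum, the share of COX9 differed by -2.70 percentage points between the strains and that of COX12 by -1.70. The mean shares of COX4, COX6, COX7 and COX13 were then still higher in *PUF3Δ*, by 1.04, 0.86, 1.24 and 1.27 points.

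**Figure D4:**
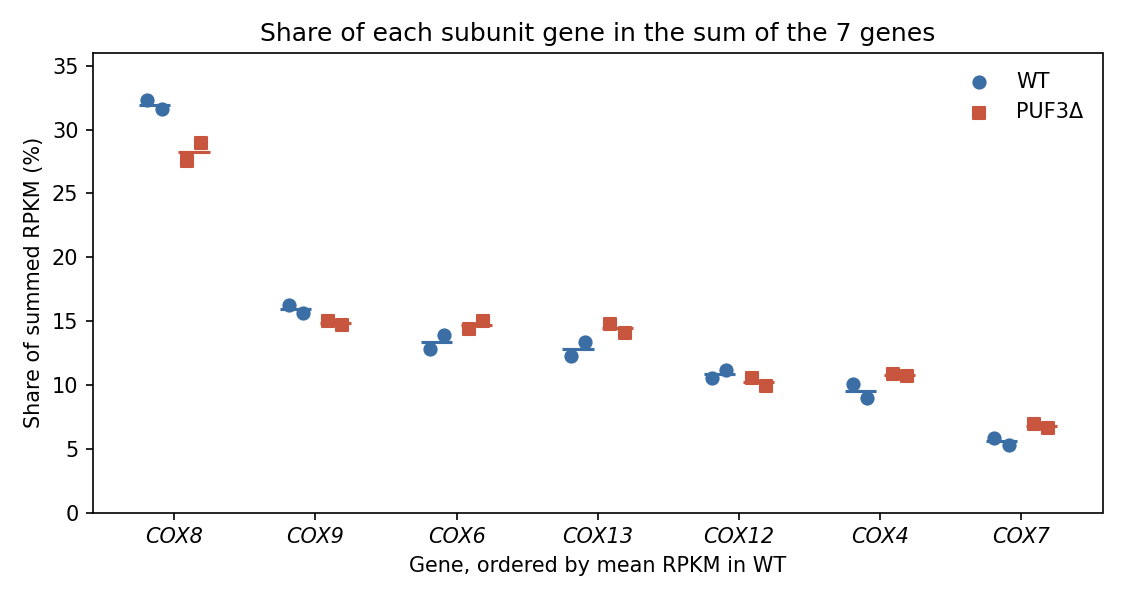
Share of each gene in the summed RPKM of the 7 genes, per library, with WT as circles, *PUF3Δ* as squares and a bar at the mean of a strain. COX8 has a mean share of 32.0% in WT and 28.2% in *PUF3Δ*, and the shares of COX4, COX6, COX7 and COX13 are higher in both *PUF3Δ* libraries.

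The order of the levels differed slightly between the strains. In both WT libraries it was COX8, COX9, COX6, COX13, COX12, COX4 and COX7, with COX6 and COX13 as neighbours that did not differ beyond their spread. In both *PUF3Δ* libraries COX4 stood above COX12 and COX9 above COX13, while the values of COX6 overlapped with those of COX9 and of COX13. The variation among the genes was computed by the coefficient of deviation (CD), the standard deviation over genes divided by the mean, here on linear RPKM. The CD of the 7 genes was 0.598 and 0.587 in WT and 0.457 and 0.501 in *PUF3Δ*, a ratio of the means of 0.808. Without COX8 it was 0.306 and 0.330 in WT and 0.265 and 0.281 in *PUF3Δ*. On log2(RPKM + 1) it was 0.0754 and 0.0794 in WT and 0.0627 and 0.0673 in *PUF3Δ*. Both *PUF3Δ* libraries were thus below both WT libraries in CD on either scale. The study reported a higher CD in *PUF3Δ* among Puf3p target genes, and its methods describe CD after log transformation. The 7 genes were not chosen as Puf3p targets, so the directions are not for the same set of genes.

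The genes that work next to these subunits are given for comparison, each from a list for its part of the pathway. The COX5 isoform used in air, COX5A (YNL052W), was at an RPKM of 1199 and 1249 in WT and 1165 and 1198 in *PUF3Δ*, a log2 fold change of -0.05 (adjusted p = 0.56 from limma). Its level lay above that of COX6 in all 4 libraries. COX5B (YIL111W), the isoform used at low oxygen, was far lower, between 26.65 and 30.1 in the 4 libraries. Of the forms of cytochrome c, which brings the electrons to the oxidase, CYC1 (YJR048W) was at 697 and 676 in WT and 716 and 749 in *PUF3Δ*, with a log2 fold change of 0.09 (adjusted p = 0.29 from limma). The low-oxygen form CYC7 (YEL039C) rose, from 21.4 and 22.7 to 36.5 and 29.1, a log2 fold change of 0.55 (adjusted p = 0.0082 from limma). Among these 4 genes, 1 was higher and 0 were lower as deposited, where 18.9% of all genes were higher and 54.2% lower. Under median-of-ratios scaling all 4 were called higher, where 33.9% of all genes were, and COX5A and CYC1 then had log2 fold changes of 0.34 and 0.48.

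Assembly of the oxidase and translation of its mitochondrial core need many further nuclear genes. Of 28 such genes, 7 were higher and 7 lower in *PUF3Δ*, and their median log2 fold change was 0.01. As deposited 18.9% of all genes were higher and 54.2% lower. Median-of-ratios scaling changed the counts to 18 higher and 5 lower, where 33.9% of all genes were higher. The length correction changed them to 20 higher and 3 lower, where 30.1% of all genes were higher. The share of all genes called lower was not counted under either setting, so the lower counts have no background here. The extremes of this list lay far beyond those of the subunits. COX17 (YLL009C), the copper chaperone whose mRNA is a known Puf3p target, rose from an RPKM of 81.0 and 93.9 to 283 and 322, a log2 fold change of 1.78. COA2 (YPL189C-A), an assembly factor, fell from 121 and 109.8 to 40.9 and 49.1, a log2 fold change of -1.35. The 7 subunit genes ran from -0.39 to 0.07. A range widens with the number of genes, here 7 against 28, so the spread of the lists cannot be compared by their extremes.

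In the cytochrome bc1 complex, the step before the oxidase, 4 of 9 subunit genes were higher and 4 lower, from QCR6 at -0.66 to COR1 at 0.64, with a median log2 fold change of 0.05. In ATP synthase, which uses the proton gradient, 3 of 14 were higher and 2 lower, from ATP18 at -0.34 to ATP2 at 1.26, with a median of -0.04. These counts stand beside 18.9% of all genes higher and 54.2% lower. Under median-of-ratios scaling 33.9% of all genes were called higher, and the share called lower was not counted. Of the 9 genes of the bc1 complex, 5 were then called higher and 2 lower. Of the 14 genes of ATP synthase, 12 were called higher and 0 lower. No gene of the oxidase subunits reached the increases seen for ATP2 or COR1. These genes are 1536 and 1374 nt long, against 180 to 468 nt for the oxidase genes. After the length correction ATP2 and COR1 stood at 1.56 and 0.99. There 6 of the 9 bc1 genes and all 14 ATP synthase genes were called higher, where 30.1% of all genes were. The medians of these lists were then 0.65 and 0.57, beside 0.53 for the 7 oxidase genes. A difference between the lists was not tested.

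All 5 HAP genes, which code for activators of respiratory genes, passed the test as deposited, 2 higher and 3 lower, where 18.9% of all genes were called higher and 54.2% lower. HAP4 (YKL109W), for the subunit that activates transcription and limits the complex, rose from 195.6 and 270.3 to 475 and 509.6, a log2 fold change of 1.09 (adjusted p = 4.3e-04 from limma). HAP3 (YBL021C), for a DNA-binding subunit, fell from 186 and 170.3 to 75.6 and 89.5, a log2 fold change of -1.11 (adjusted p = 9.2e-05 from limma). HAP2 (YGL237C) and HAP5 (YOR358W), for the other subunits that bind DNA, had -0.40 and -0.53, and HAP1 (YLR256W), a heme-responsive activator of its own, had 0.68. Median-of-ratios scaling kept the calls of HAP1, HAP3 and HAP4 in the same direction, while HAP2 and HAP5 then stood at -0.01 and -0.14 and were not called. HAP1 is 4509 nt long, and after the length correction its log2 fold change was 0.30. HAP4 and HAP3 then stood at 1.34 and -0.49, and HAP2 and HAP5 at 0.17 and 0.05. As deposited, the 6 oxidase genes with CCAAT in the window had log2 fold changes from -0.39 to 0.07. COX4, without CCAAT there, lay inside this range at -0.03. A link between the oxidase genes and the HAP RNAs was not tested.

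**Figure D5:**
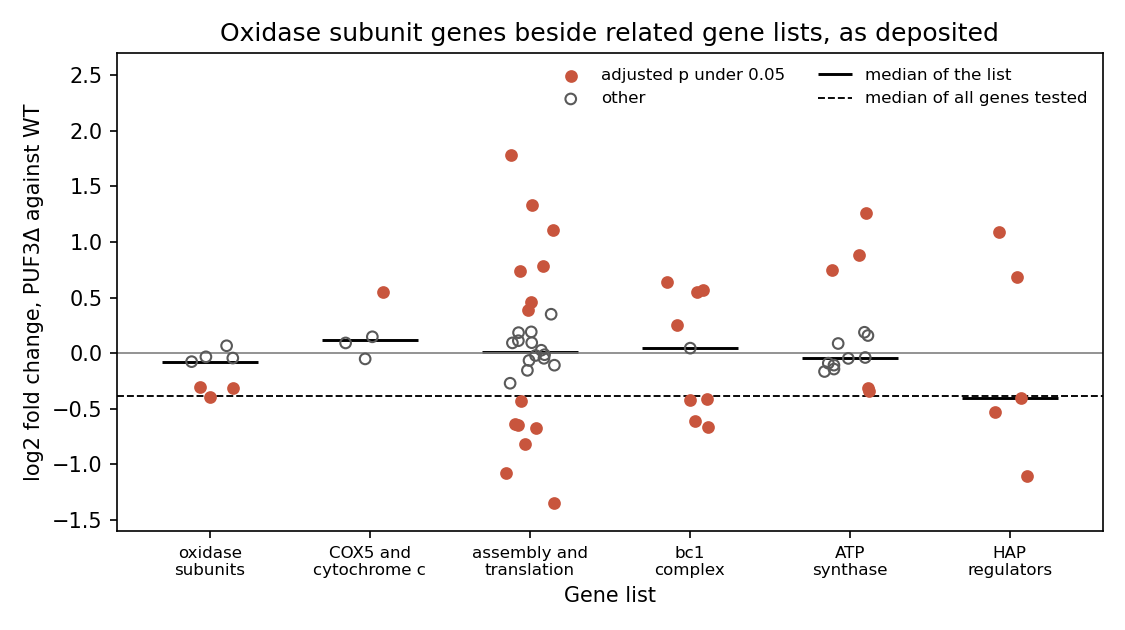
Log2 fold change as deposited of the 7 oxidase subunit genes and of 5 related lists, 1 point per gene, filled where the adjusted p from limma is under 0.05, with a bar at the median of each list and a dashed line at the median of all genes tested (-0.39). The oxidase subunits lie between -0.39 and 0.07, inside the range of the assembly and translation factors, which runs from -1.35 to 1.78.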

How the data were processed

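SOAP2 was used by the authors to map reads, allowing up to 2 mismatches, and they deposited an RPKM value for each gene and library. Its version, the handling of multiply mapped reads and whether counting used strand are not given in the sources used here. The submitters' processing notes name R64, but the tables and R64 shared coordinates for 16.5% of the 5966 genes matched, so all positions are from R64, joined by identifier. RPKM times gene length summed to 1000000 in each library, and 100% of the values gave whole reads within 0.1, from which reads were counted.

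Strains were grouped by the labels and compared with limma 3.58.1 in R 4.3.3 (eBayes with a trend) on log2(RPKM + 1). Tables were made with Python 3.11.15. Alternatives were another pseudocount, other filters, median-of-ratios and quantile scaling, a loess correction for length (span 0.5), eBayes without a trend, a replicate block and leaving out each library. The script was tested on simulated data.

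The members and lists were chosen with earlier results of these data known. Named were all members, *PUF3*, COX5A, COX5B, CYC1, CYC7, the HAP genes, and the highest and lowest gene of each other list. The mitochondrially encoded COX1, COX2 and COX3 were not analysed here. LYS2, MET17, MF(ALPHA)1 and STE2 were read as a check of the labels.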

Additional observations from a re-analysis of the deposited data

How the results depend on the processing

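Median-of-ratios scaling gave 4 genes higher and 0 lower in *PUF3Δ*, with a median log2 fold change of 0.32 over the 7 genes. Loess correction for length gave 6 higher and 0 lower, with a median of 0.53. Of all genes, 33.9% and 30.1% were called higher under these settings, and the share called lower was not counted. Quantile normalization moved the median to 0.0065. The log2 fold change changed sign under median-of-ratios scaling for COX4 (0.36), COX6 (0.32), COX9 (0.077), COX12 (0.091) and COX13 (0.35), under the length correction for COX4 (0.58), COX6 (0.53), COX8 (0.21), COX9 (0.30), COX12 (0.31) and COX13 (0.57), and under quantile normalization for COX4 (0.080), COX6 (0.0065) and COX13 (0.041). By construction, median-of-ratios scaling removes a shift shared by most genes, and the length correction one shared by most genes of a length. Leaving out each library gave a median from -0.15 to -0.053, a log2 fold change from -0.15 to 0.082 for COX4 and one from -0.032 to 0.17 for COX7. The CD ratio of 0.808 ran from 0.771 to 0.845 when a library was left out and was 0.860 without COX8.

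The replicates share only a number (correlation of their deviations -0.01 over genes), and with a replicate block COX8, COX9 and COX12 stayed called lower in limma (3 genes, log2 fold change of -0.39 for COX8, adjusted p = 0.015). With 2 libraries per strain, the intervals of COX4, COX6, COX7 and COX13 still hold changes between -0.26 and 0.28 on the log2 scale.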
